A study of Mus musculus with 24 samples.

Results

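Untreated C2C12 cells were compared at 2 points of their differentiation, day 6 against day 2. C2C12 is an established line of mouse myoblasts, the mononucleated precursors of muscle fibres, and the labels give it as wild type. They were chosen by label: the 4 libraries of vehicle-treated cells collected at day 2 and the 4 collected at day 6, which make 8 of the 24 libraries of the series. In every group the cells had been kept in 10% fetal bovine serum and were made to differentiate in 2% horse serum. The other 16 libraries came from cells that also received 100 µM linoleic acid (LA) coupled to bovine serum albumin, or recombinant mouse ANGPTL4 at 10 ng/mL, at the same 2 days. For the comparison of days, they entered the choice of tested genes, the scaling of libraries and the estimate of the spread. Their day changes were used in the last comparison only. The composition of the vehicle and the event from which days were counted are not given in the sources used here. The model is a single line grown without nerve or added cell types. The labels do not state whether the libraries of a group came from separate cultures, so the p-values measure only the spread between these libraries, which may be technical.

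When serum is lowered, myoblasts leave the cell cycle, switch on muscle transcription factors of the MyoD family together with MEF2 proteins, fuse, and assemble sarcomeres, the repeating contractile units. Sarcomeres are built at first from embryonic and cardiac-type protein isoforms, and adult fast or slow isoforms take their place as a fibre matures. Part of a C2C12 culture does not differentiate and stays behind as quiescent mononucleated cells called reserve cells.

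Abundance was measured by sequencing transcript 3′ ends (QuantSeq), in counts per gene. Library totals were 9850494 to 14529573 counts at day 2 and 9847952 to 12606450 at day 6 (exact permutation p = 0.629). Among the treated libraries, LA day 2 replicate 3 and ANGPTL4 day 6 replicate 1 stood apart from their groups on the second principal component of all 24. The first principal component of the 8 vehicle libraries separated the days and held 63.9% of the variance. Across genes, Pearson r was 0.990 to 0.994 between libraries of 1 day and 0.968 to 0.980 between days. Values below are per-million counts on TMM-scaled library totals (CPM), and log2FC is the log2 fold change of day 6 over day 2. A gene is said to have risen or fallen where its adjusted p was under 0.05. Of 12994 genes tested, 5930 (45.6%) changed, 3272 higher (25.2%) and 2658 lower (20.5%) at day 6, and the median log2FC of all genes was 0.02. Most changes were small: 436 genes (3.36%) rose and 332 (2.56%) fell by at least 2-fold, and 93 rose and 50 fell by at least 4-fold. The CPM of the 4 and 4 libraries did not overlap for 5221 genes (40.2%). These shares are the background for each gene group below. The split by direction depended on the fit: with the 8 vehicle libraries fitted alone, 2670 genes were higher and 2742 lower. In RNA from whole cultures, fewer cells of a type and less RNA per cell cannot be told apart.

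The labelled cell type was checked against markers. All 12 skeletal muscle markers were detected, among them Myod1, Myog, Des and Ttn, and took 2.41% to 2.79% of counts at day 2 and 2.35% to 2.84% at day 6. By gene, 7 of the 12 rose and 1 fell (median log2FC 0.23). Ttn, which did not pass the test, held most of the summed counts. Endothelial markers took at most 0.000964% of counts, with Cdh5 and Tek too low to test, and macrophage markers at most 0.000841%, with Csf1r, Lyz2 and Mrc1 too low to test. The 14 fibroblast markers took 0.130% to 0.139% at day 2 and 0.137% to 0.156% at day 6 (exact permutation p = 0.0571, 0.105 after Benjamini-Hochberg adjustment over 24 such sums). The 3 adipocyte markers in the table, Pparg, Cebpa and Lpl, took 0.00647% to 0.00819% at day 2 and 0.00247% to 0.00302% at day 6, with days that did not overlap (exact permutation p = 0.0286, 0.0571 after the same adjustment), and of the 3 Lpl fell and none rose. The table held 4 of 10 listed endothelial markers, 6 of 11 macrophage, 14 of 16 fibroblast and 3 of 10 adipocyte markers. No member in the table was at 0 in all 8 libraries, and markers absent from it could not be assessed.

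Among the sarcomeric myosin heavy chains, the motors of the thick filament, perinatal and fast chains rose, while the embryonic chain stayed the most abundant. Of 9 heavy chain genes tested, 5 rose and 1 fell (median log2FC 0.55). Myh3, the embryonic chain, stood at 5006, 5619, 5362 and 5303 CPM at day 2 and 4579.8, 4582, 4820.1 and 4817 CPM at day 6. Its libraries did not overlap, and it fell slightly (log2FC -0.18 with SE 0.0609, adjusted p = 0.0162). Myh8, the perinatal chain, stood at 359, 334, 365 and 303 CPM at day 2 and 756, 840.3, 731 and 623 CPM at day 6 and rose (log2FC 1.12 with SE 0.130, adjusted p = 8.72e-07). The fast chains of adult muscle rose more. Myh4, the IIb chain, was measured at 252, 216, 254 and 255 CPM at day 2 and 981, 970.2, 894 and 852 CPM at day 6 (log2FC 1.92 with SE 0.105, adjusted p = 2.52e-12). Myh1, the IIx chain, was measured at 887, 879.9, 942 and 803 CPM at day 2 and 2620.2, 2536, 2492 and 2331 CPM at day 6 (log2FC 1.51 with SE 0.0785, adjusted p = 7.93e-15). Myh2, the IIa chain, was measured at 19.98, 20.1, 21.6 and 19.3 CPM at day 2 and 108, 116, 104 and 105 CPM at day 6 (log2FC 2.42 with SE 0.124, adjusted p = 6.22e-13). For all 3 fast chains every day 6 library lay above every day 2 library, and the spread within a day was small beside the gap. Myh7, the slow chain shared with the heart, stood at 382, 416, 395 and 359 CPM at day 2 and 419.7, 462, 408 and 341 CPM at day 6. The 2 days overlapped and the change did not pass the test (log2FC 0.07 with SE 0.0740, adjusted p = 0.461). Myh6, the cardiac alpha chain, did not pass either (log2FC -0.21), and Myh7b rose by log2FC 0.28 with libraries that overlapped, a call that was lost without day 2 replicate 1 or 2 or day 6 replicate 2 or 3 (adjusted p = 0.0573 to 0.0962). Because the chains are encoded by a family of similar genes, reads shared between copies could blur these values.

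**Figure D1:**
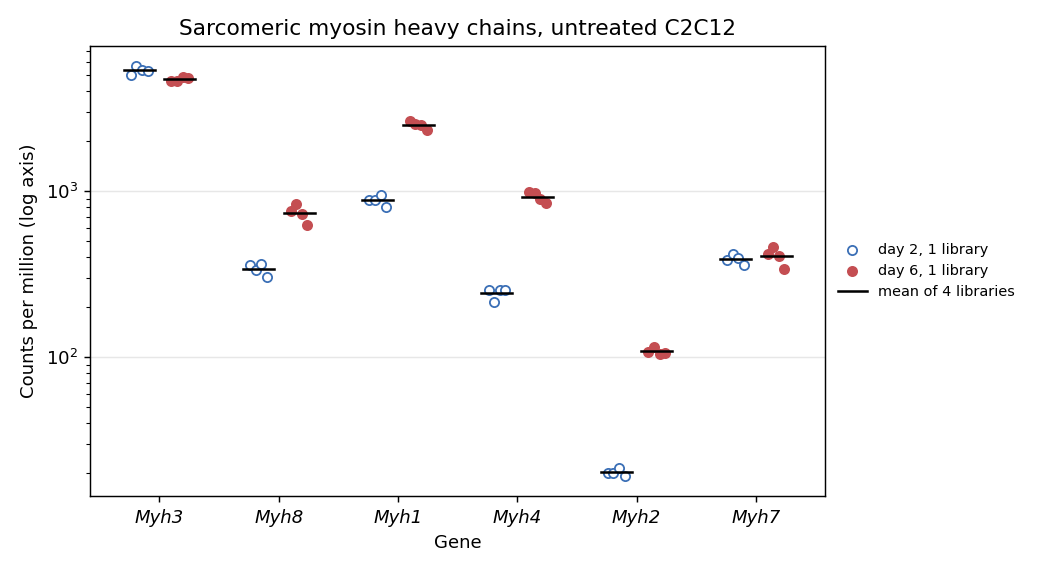
CPM (log axis) of 6 sarcomeric myosin heavy chain genes in each of the 8 vehicle libraries, day 2 (open circles) and day 6 (filled circles), with the mean of each day as a bar. Myh8, Myh1, Myh4 and Myh2 are higher in every day 6 library than in any day 2 library, Myh3 is slightly lower, and Myh7 overlaps.

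Expressed as its share of the counts of Myh3 and the later chain together, a fast or perinatal chain took more of its pair in every day 6 library. The Myh4 share was 4.80%, 3.70%, 4.53% and 4.58% at day 2 and 17.6%, 17.5%, 15.6% and 15.02% at day 6, and the log2 ratio of Myh4 to Myh3 rose by 2.099 (exact permutation p = 0.0286, the smallest that 70 splits of 4 against 4 allow, 0.0357 after adjustment over 25 pairs). The share of Myh1 moved from 14.2% ± 0.967 to 34.7% ± 1.68 (mean ± SD, n = 4 libraries at each day, here and wherever ± is given), that of Myh8 from 6.02% ± 0.610 to 13.6% ± 1.71 and that of Myh2 from 0.379% ± 0.0229 to 2.25% ± 0.162, with the same p-values. The share of Myh7 was 6.80% ± 0.319 to 7.99% ± 1.08, with days that overlapped (exact permutation p = 0.114).

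The bases before the start sites of Myh3, Myh1 and Myh4 are shown because these neighbouring genes of 1 family, on 1 chromosome, moved in opposite directions. Acta1 and Xirp2, a sarcomeric actin and a Z-disc associated protein that rose, are shown beside them. Each line is the 250 bases before a start site, from RefSeq, build GRCm38.p6, in the direction of transcription. Capitals mark matches on either strand to 5 motifs: CAGCTG (an E-box of the kind MyoD family proteins bind), the MEF2 site, the CArG box of serum response factor, CATTCC (the core bound by TEAD factors) and CCAAT (bound by NF-Y).
Myh3 (chr11:67078050-67078299, plus strand): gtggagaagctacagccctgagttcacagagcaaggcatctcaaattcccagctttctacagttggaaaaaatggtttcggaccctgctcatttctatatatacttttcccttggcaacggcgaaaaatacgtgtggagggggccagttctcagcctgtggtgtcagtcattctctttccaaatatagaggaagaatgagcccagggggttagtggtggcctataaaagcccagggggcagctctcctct
Myh1 (chr11:67199852-67200101, plus strand): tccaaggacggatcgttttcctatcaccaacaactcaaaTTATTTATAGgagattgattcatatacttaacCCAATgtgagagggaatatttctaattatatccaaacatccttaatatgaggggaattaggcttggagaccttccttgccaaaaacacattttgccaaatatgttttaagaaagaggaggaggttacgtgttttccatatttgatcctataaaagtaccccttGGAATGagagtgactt
Myh4 (chr11:67237562-67237811, plus strand): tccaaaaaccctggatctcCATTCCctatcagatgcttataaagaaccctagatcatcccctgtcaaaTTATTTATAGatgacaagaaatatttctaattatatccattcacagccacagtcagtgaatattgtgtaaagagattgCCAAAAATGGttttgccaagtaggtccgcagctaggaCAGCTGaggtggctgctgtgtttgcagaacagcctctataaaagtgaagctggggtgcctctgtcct
Acta1 (chr8:123894776-123895025, minus strand): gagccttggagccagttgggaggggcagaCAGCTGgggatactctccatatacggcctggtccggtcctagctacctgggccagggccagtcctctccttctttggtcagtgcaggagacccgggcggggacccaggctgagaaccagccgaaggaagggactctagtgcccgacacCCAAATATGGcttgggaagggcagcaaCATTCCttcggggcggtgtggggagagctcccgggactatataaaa
Xirp2 (chr2:67445752-67446001, plus strand): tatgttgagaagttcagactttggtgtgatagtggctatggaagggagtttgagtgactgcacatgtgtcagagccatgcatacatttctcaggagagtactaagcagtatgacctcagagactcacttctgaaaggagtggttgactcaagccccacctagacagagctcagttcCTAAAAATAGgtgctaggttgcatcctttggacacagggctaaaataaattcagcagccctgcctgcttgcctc
The Myh3 window held none of these motifs. Myh4 held a MEF2 site starting 182 bases before the start site, a CArG box at 104, a CAGCTG at 67 and a CATTCC at 231. Myh1 held a MEF2 site at 211, a CCAAT at 179 and a CATTCC at 16. Acta1 held a CAGCTG at 221, a CArG box at 73 and a CATTCC at 46, and Xirp2 held a MEF2 site at 74. A match is a run of letters, not a measured binding site, and a window without one says only that these letters are not in it.

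Promoter windows were matched for 100 of the 131 tested genes of the contractile and triad lists described here and gave 125 windows. A MEF2 site was found in 12% of them, against 1.77% of the 13124 windows of all tested genes, and a CArG box in 8.8% against 1.20%. CAGCTG was found in 28.0% against 12.5%, and CATTCC in 20.8% against 10.9%. Among windows of the genes that rose at least 2-fold, 7.29% held a MEF2 site and 1.18% a CArG box, and among those that fell at least 2-fold 1.79% and 2.14%. CAGCTG was found in 18.8% of windows of the genes that rose and 15.7% of those that fell, and CATTCC in 13.4% and 13.9%. These shares are a description, and no test was made of them.

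Actins and myosin light chains followed, with 8 of 10 genes higher and 2 lower (median log2FC 0.80). Acta1, the skeletal alpha-actin of adult muscle, stood at 2393, 2742, 2485 and 2385 CPM at day 2 and 4052, 3948, 3674 and 4020.5 CPM at day 6. All day 6 libraries lay above all day 2 libraries (log2FC 0.65 with SE 0.0515, adjusted p = 4.90e-12). Actc1, the cardiac alpha-actin that muscle uses before birth, stood at 1263, 1435, 1320.0 and 1363 CPM at day 2 and 1214, 1200.2, 1089 and 1186 CPM at day 6 and was lower in every day 6 library (log2FC -0.20 with SE 0.0554, adjusted p = 0.00393). The share of Acta1 in the pair therefore moved from 65.0% ± 0.930 to 77.0% ± 0.236. Myl2, the slow and ventricular regulatory light chain, was near 1 CPM at day 2 (1.41, 1.63, 2.11 and 0.742 CPM) and reached 18.6, 18.5, 20.3 and 19.3 CPM at day 6 (log2FC 3.71 with SE 0.160, adjusted p = 1.94e-18). Kinases of the light chains diverged: Mylk2, the skeletal muscle kinase, rose from 17.7 ± 1.75 to 59.3 ± 4.64 CPM (log2FC 1.74 with SE 0.0928, adjusted p = 9.78e-16), and Mylk4 fell from 174 ± 4.67 to 142 ± 17.9 CPM (log2FC -0.30 with SE 0.0777, adjusted p = 0.00287). The essential light chains Myl1 and Myl4, adult and embryonic, both rose (log2FC 0.98 and 0.86), so that the share of Myl1 in the pair moved only from 41.6% ± 1.18 to 43.6% ± 0.414. The change of the log2 ratio, 0.12 with all 8 libraries, was 0.11 to 0.12 without any 1 day 6 library, with an exact permutation p of 0.0571 to 0.0857.

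On the thin filament, 14 of 19 troponin, tropomyosin and capping genes rose and 1 fell (median log2FC 0.55). Lmod2 and Lmod3, leiomodins that elongate actin filaments in striated muscle, rose by log2FC 1.01 and 0.75, and Lmod1, the smooth muscle form, fell by 0.76. Slow and fast troponins rose together: Tnnt1 and Tnni1, of slow fibres, by log2FC 0.87 and 0.55, and Tnnt3, Tnni2 and Tnnc2, of fast fibres, by 0.61, 0.70 and 0.67. The fast share fell within the pair of Tnnt3 and Tnnt1, from 69.1% ± 1.42 to 65.2% ± 0.871, and rose against the cardiac form Tnnt2, from 42.5% ± 1.00 to 48.6% ± 0.652, each with days that did not overlap (exact permutation p = 0.0286 for both). For Tnni2 against Tnni1 the days overlapped (exact permutation p = 0.200). Neb, the giant ruler of the thin filament, did not pass the test (log2FC 0.15, adjusted p = 0.206).

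In the thick filament and M-band list, 12 of 14 genes rose and none fell (median log2FC 0.66). The myosin-binding proteins C moved at different rates, with Mybpc1, the slow form, going from 71.2 ± 4.65 to 253 ± 8.17 CPM (log2FC 1.83 with SE 0.0952, adjusted p = 2.39e-13) and the fast form Mybpc2 rising more, so that the share of Mybpc2 in the pair went from 1.83% ± 0.522 to 8.52% ± 0.841. The M-band proteins Myom1, Myom2 and Myom3 rose by log2FC 0.80, 0.64 and 0.43. Ttn, the giant spring that spans the sarcomere from Z-disc to M-band, stood at 13760.0, 15883, 16203 and 17801 CPM at day 2 and 10193, 10544, 15666 and 13055 CPM at day 6. Its libraries overlapped and it did not pass the test (log2FC -0.36 with SE 0.221, adjusted p = 0.191), though it did (adjusted p = 0.0267) when the 2 treated libraries that stood apart from their groups were left out of the fit.

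Of 37 Z-disc genes, 26 rose and 4 fell (median log2FC 0.46), and 7 rose at least 2-fold. Myot, which cross-links actin at the Z-disc, stood at 7.52, 7.00, 6.45 and 6.35 CPM at day 2 and 48.2, 56.6, 42.8 and 53.1 CPM at day 6 (log2FC 2.87 with SE 0.106, adjusted p = 1.14e-19). Tcap, which anchors titin there, rose from 14.5 ± 1.58 to 67.9 ± 2.98 CPM (log2FC 2.22 with SE 0.0998, adjusted p = 4.83e-17), the small heat shock protein Hspb7 from 12.6 ± 1.77 to 85.8 ± 10.54 CPM (log2FC 2.75 with SE 0.1001, adjusted p = 6.93e-19) and Myoz1, which binds alpha-actinin and calcineurin, from 1.39 ± 0.396 to 6.97 ± 1.27 CPM (log2FC 2.34 with SE 0.208, adjusted p = 6.30e-11). Xirp2 stood at 3.98, 5.30, 2.62 and 6.35 CPM at day 2 and 16.8, 36.8, 36.3 and 46.4 CPM at day 6 (log2FC 2.85 with SE 0.328, adjusted p = 9.27e-07). The days did not overlap, though day 6 replicate 1 lay well below the other 3 day 6 libraries. Des, the muscle intermediate filament, rose by log2FC 0.49. The alpha-actinins Actn2 and Actn3 rose by 0.80 and 0.35, and the share of Actn3, the fast-fibre form, fell from 78.5% ± 0.182 to 72.8% ± 1.59 (exact permutation p = 0.0286). Among the 4 that fell were Fhl2, Csrp1 and Fbxl22, by 0.24, 0.38 and 0.84 on the log2 scale.

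**Figure D2:**
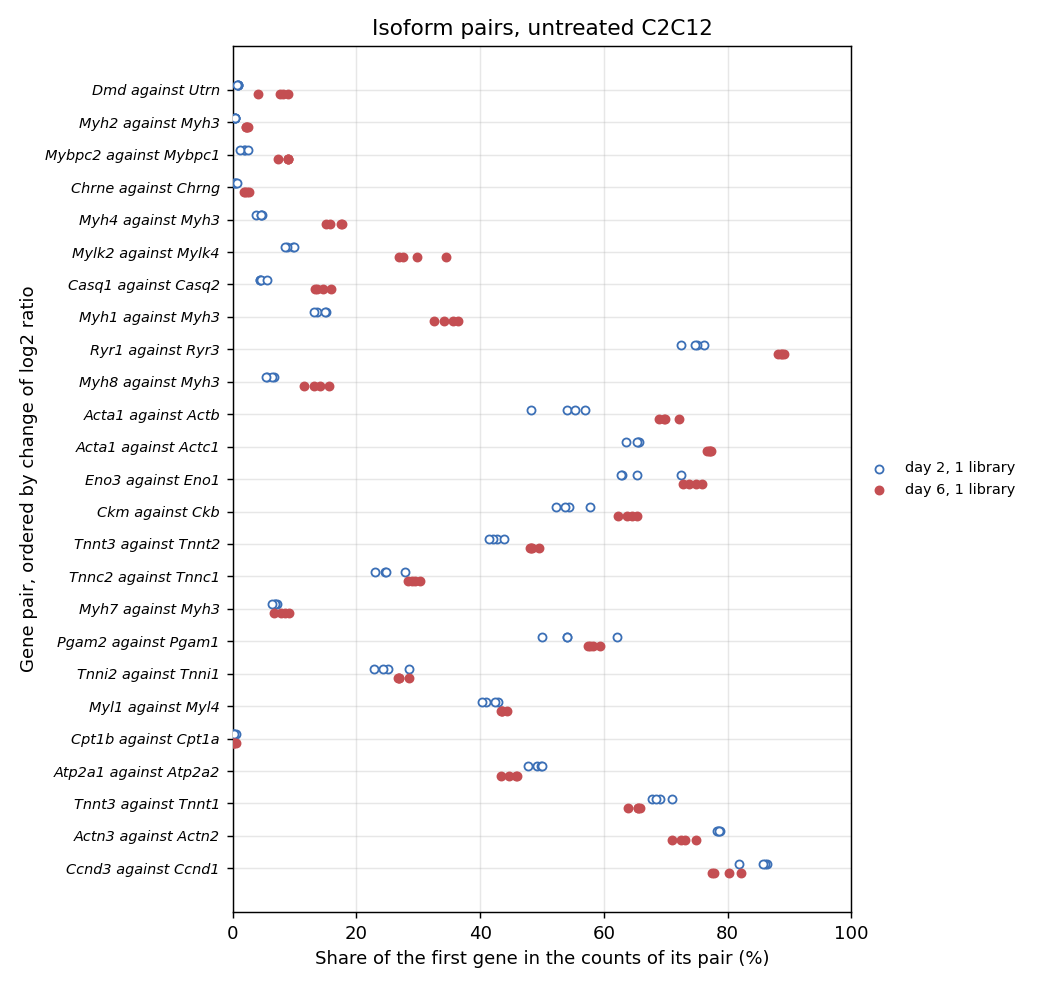
Share of the later or muscle-type member in the summed counts of 25 gene pairs (percent, horizontal axis), in each of the 4 day 2 libraries (open circles) and the 4 day 6 libraries (filled circles). In most pairs the day 6 points lie to the right, as for Myh4 against Myh3 and Ryr1 against Ryr3, while Tnnt3 against Tnnt1, Atp2a1 against Atp2a2 and Actn3 against Actn2 lie to the left.

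Over the 25 pairs, 20 did not overlap between the days, 17 of them toward the later or muscle-type member and 3 (Tnnt3 to Tnnt1, Atp2a1 to Atp2a2, Actn3 to Actn2) away from it. Each of the 20 had an exact permutation p of 0.0286, or 0.0357 after adjustment over the 25. Some pairs share a gene, as all heavy chain pairs share Myh3, so the 25 are not independent. The share of non-overlapping ratios among other pairs of genes was not computed. Without any 1 day 6 library, p passed 0.05 for Tnnc2 to Tnnc1, Eno3 to Eno1 and Myl1 to Myl4, at a nearly unchanged size. For Tnnc2 to Tnnc1 the change of the log2 ratio was 0.31 with all libraries and 0.29 to 0.33 in those 4 cases, with an exact permutation p of 0.0571.

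At the triad, where the surface membrane meets the calcium store, 27 of 42 genes rose and 3 fell (median log2FC 0.33). Casq1, the calcium-binding protein of the fast-fibre store, stood at 21.5, 22.7, 21.8 and 23.7 CPM at day 2 and 102, 94.0, 96.8 and 123 CPM at day 6 (log2FC 2.21 with SE 0.110, adjusted p = 6.59e-14). It rose more than the cardiac form Casq2 (log2FC 0.44), and its share of the pair moved from 4.71% ± 0.536 to 14.4% ± 1.20. Ryr1, the calcium release channel of adult skeletal muscle, rose by log2FC 0.62, while Ryr3, the channel of immature muscle, stood at 172, 188, 201 and 196 CPM at day 2 and 109, 105, 115 and 107 CPM at day 6 and fell (log2FC -0.80 with SE 0.0830, adjusted p = 1.92e-08). The share of Ryr1 thus went from 74.6% ± 1.60 to 88.7% ± 0.379. Slc8a3, a sodium-calcium exchanger, rose from 1.83 ± 0.244 to 7.70 ± 0.678 CPM (log2FC 2.08 with SE 0.172, adjusted p = 1.33e-11) and its relative Slc8a1 fell (log2FC -0.27). The calcium pumps Atp2a2, of slow fibres, and Atp2a1, of fast fibres, rose by 0.72 and 0.48, and the share of Atp2a1 fell from 49.2% ± 1.01 to 45.0% ± 1.22. Trdn, which ties the store to the channel, rose by log2FC 0.96 with days that overlapped.

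Genes of the neuromuscular synapse moved both ways, 10 of 26 higher and 6 lower (median log2FC 0.05). Chrne, the subunit of the acetylcholine receptor in adult synapses, stood at 0.531, 1.36, 0.806 and 1.48 CPM at day 2 and 6.71, 9.37, 6.23 and 7.99 CPM at day 6 (log2FC 2.79 with SE 0.288, adjusted p = 6.03e-09). Chrng, the fetal subunit that it replaces, did not fall but rose, from 219 ± 4.85 to 341 ± 15.1 CPM (log2FC 0.64 with SE 0.0520, adjusted p = 8.90e-12), and the share of Chrne moved from 0.473% ± 0.201 to 2.17% ± 0.353. Ache, which breaks down acetylcholine, and Colq, its collagen tail, rose by log2FC 1.37 and 0.93. Musk, the kinase that organises the synapse, and Rapsn, which clusters the receptors, fell by 0.25 and 0.28.

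In the dystrophin complex, 14 of 30 genes rose and 8 fell (median log2FC 0.14). Dmd, the link between cytoskeleton and membrane, stood at 4.60, 4.35, 4.53 and 3.79 CPM at day 2 and 18.3, 34.6, 44.3 and 44.6 CPM at day 6 (log2FC 3.03 with SE 0.258, adjusted p = 1.15e-08). All day 6 libraries lay above day 2, with replicate 1 the lowest of day 6. Utrn, its relative at immature membranes, stood at 509, 541, 521 and 564 CPM at day 2 and 436, 417, 498 and 451 CPM at day 6 and fell (log2FC -0.24 with SE 0.0748, adjusted p = 0.00902), so that the share of Dmd moved from 0.806% ± 0.1 to 7.21% ± 2.19. Sgca and Sgcd, sarcoglycans of striated muscle, rose by log2FC 0.64 and 0.65, Nos1 by 1.00 and the repair protein Trim72 by 1.09. Sgce and the syntrophins Sntb1 and Sntb2 fell by 0.32, 0.44 and 0.50. Cav3, the caveolin of muscle, rose from 34.1 ± 3.25 to 80.5 ± 5.79 CPM (log2FC 1.24 with SE 0.0747, adjusted p = 8.17e-15).

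The transcription factors that direct the programme did not rise as a group: 5 of 31 rose and 14 fell (median log2FC -0.11). Myf6, the last of the MyoD family to come on in muscle, stood at 1.06, 0.611, 1.01 and 0.907 CPM at day 2 and 4.67, 3.59, 4.94 and 3.01 CPM at day 6 and rose (log2FC 2.21 with SE 0.232, adjusted p = 2.31e-09). Myog, the factor of terminal differentiation, stood at 838, 955, 863 and 714 CPM at day 2 and 831, 801, 762 and 831 CPM at day 6. The days overlapped and it did not pass the test (log2FC -0.06 with SE 0.0642, adjusted p = 0.435). Myod1 fell slightly, with days that overlapped (log2FC -0.18 with SE 0.0538, adjusted p = 0.00589), and Myf5, a factor of undifferentiated myoblasts, stood at 15.4, 13.6, 15.7 and 14.8 CPM at day 2 and 6.39, 8.57, 8.98 and 8.82 CPM at day 6 and fell (log2FC -0.86 with SE 0.112, adjusted p = 1.62e-07). Among the MEF2 genes, Mef2c and Mef2d rose (log2FC 1.69 and 0.34) and Mef2a fell (-0.35).

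Genes that hold back muscle factors included 6 that rose and 10 that fell among 23 tested (median log2FC -0.07). One of the 6, Sharpin, was listed in error, as it is not known for this role. The Id proteins, which bind the partners of MyoD and block them, fell together: Id1 by 0.49, Id2 by 0.78 and Id3 by 1.18. Id3 stood at 49.5, 37.5, 50.7 and 45.0 CPM at day 2 and 18.7, 14.7, 26.1 and 20.2 CPM at day 6 (log2FC -1.18 with SE 0.160, adjusted p = 5.44e-06). Bhlhe40, a repressor, rose by log2FC 0.73, and Hdac4 fell by 0.38 while Hdac5 rose by 0.40.

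In the list of satellite cell and Notch genes, 17 of 30 fell and 4 rose (median log2FC -0.25). Notch keeps muscle precursors undifferentiated. Notch1, a receptor, stood at 142, 142, 159 and 144 CPM at day 2 and 85.3, 88.0, 90.9 and 88.5 CPM at day 6 (log2FC -0.73 with SE 0.0796, adjusted p = 2.24e-08), and its target Hey1 at 13.8, 15.1, 14.1 and 11.1 CPM at day 2 and 5.40, 5.18, 5.26 and 5.92 CPM at day 6 (log2FC -1.32 with SE 0.112, adjusted p = 2.37e-11). Neither overlapped between days. Cxcr4, a chemokine receptor of muscle precursors, stood at 87.0, 83.4, 84.4 and 114 CPM at day 2 and 40.4, 33.2, 36.7 and 41.2 CPM at day 6 (log2FC -1.28 with SE 0.0947, adjusted p = 3.19e-11). Lfng, which modifies Notch, and Heyl, another target, fell by 0.86 and 0.49, but the target Hes1 rose by 0.31 and Spry1, a brake on growth factor signalling found in quiescent cells, by 0.57.

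Of 54 fusion genes, 21 rose and 9 fell (median log2FC 0.03), the 9 becoming 5 without day 2 replicate 4. Mymk, the myomaker protein of the fusing membrane, stood at 428, 462, 432 and 433 CPM at day 2 and 567, 512, 432 and 445 CPM at day 6 and did not pass the test (log2FC 0.16 with SE 0.0683, adjusted p = 0.0608), though it did without day 6 replicate 3 (adjusted p = 0.0125) or 4 (adjusted p = 0.0396), while Mymx, its partner myomixer, stood at 42.3, 40.0, 42.3 and 40.3 CPM at day 2 and 51.0, 50.9, 46.5 and 50.02 CPM at day 6 and rose (log2FC 0.27 with SE 0.0740, adjusted p = 0.00372).

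**Figure D3:**
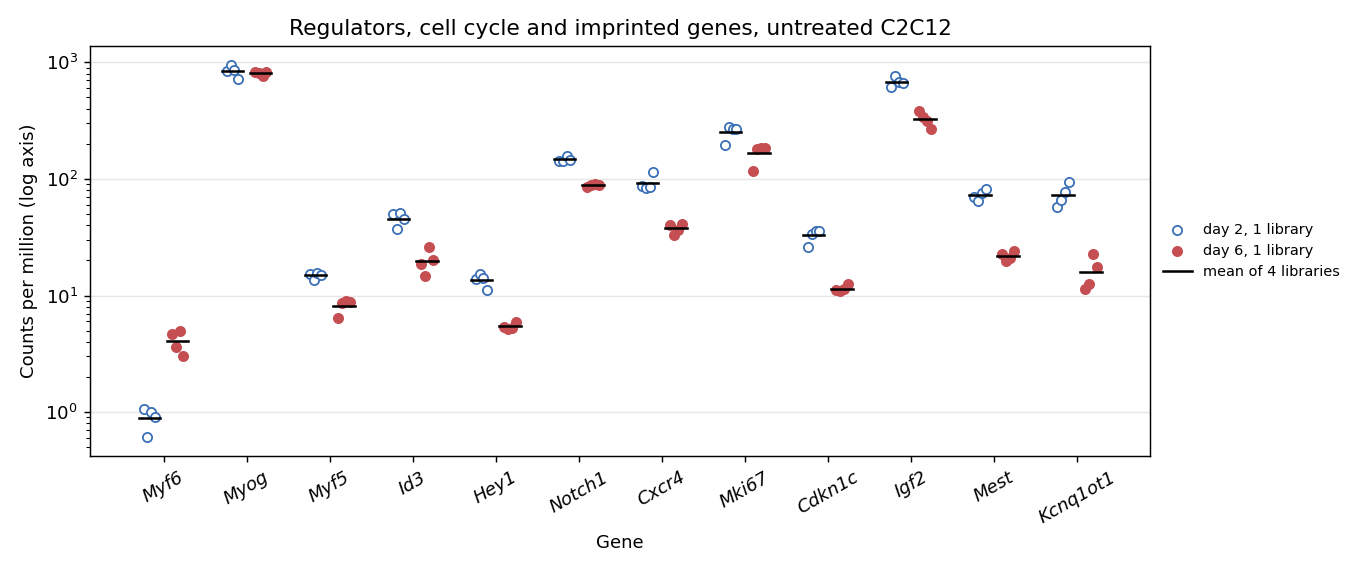
CPM (log axis) of 12 regulators, cell cycle genes and imprinted genes in each of the 8 vehicle libraries, day 2 (open circles) and day 6 (filled circles), with the mean of each day as a bar. All 12 except Myog and Myf6 are lower in every day 6 library, Myf6 is higher, and Myog overlaps between the days.

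Cell cycle genes fell without exception among those that changed, in small steps. Of 51 DNA replication genes, 33 fell and none rose (median log2FC -0.35), and of 62 mitosis genes, 39 fell and none rose (median log2FC -0.31). None of them fell by 2-fold. Mki67, the marker of proliferating cells, stood at 196, 278, 269.6 and 266 CPM at day 2 and 117, 181, 185 and 184 CPM at day 6 (log2FC -0.60 with SE 0.149, adjusted p = 0.00277). Day 2 replicate 1 was the lowest of its day, yet above all day 6 libraries. Top2a, which untangles chromosomes, stood at 202, 249, 245 and 198 CPM at day 2 and 151, 163, 157 and 163 CPM at day 6 (log2FC -0.50 with SE 0.0737, adjusted p = 3.00e-06). Uhrf1 and Mcm10, of replication, fell by 0.79 and 0.77, and the kinetochore gene Knl1 by 0.69. The genes were thus still counted at day 6. Their promoters are shown because motifs of cell cycle genes recur in them. Capitals mark CCAAT and TTTGAA, the core of the element that holds cell cycle genes silent in resting cells, on either strand, in the same RefSeq windows and build.
Mki67 (chr7:135716380-135716629, minus strand): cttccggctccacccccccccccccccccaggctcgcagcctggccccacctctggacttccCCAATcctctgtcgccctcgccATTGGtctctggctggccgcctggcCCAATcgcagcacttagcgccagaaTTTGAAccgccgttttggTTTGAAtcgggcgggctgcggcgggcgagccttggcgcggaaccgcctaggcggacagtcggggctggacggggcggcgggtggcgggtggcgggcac
Top2a (chr11:99024190-99024439, minus strand): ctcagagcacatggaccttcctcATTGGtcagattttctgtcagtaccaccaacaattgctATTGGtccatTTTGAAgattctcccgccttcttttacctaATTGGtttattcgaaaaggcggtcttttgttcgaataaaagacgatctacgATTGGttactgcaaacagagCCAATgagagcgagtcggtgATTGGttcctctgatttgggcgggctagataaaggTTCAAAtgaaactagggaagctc
Mki67 held 3 CCAAT and 2 TTTGAA matches, and Top2a 6 and 2. Of 104 windows from the replication and mitosis lists, 64.4% held CCAAT, against 34.7% of all 13124 windows, and 27.9% held TTTGAA, against 10.6%. The windows for the contractile and triad lists held CCAAT in 31.2% and TTTGAA in 10.4%. Among windows of all genes that fell at least 2-fold, 23.9% held CCAAT and 17.5% TTTGAA, and among those that rose at least 2-fold 29.2% and 12.7%. CCAAT was thus less frequent in both than over all windows. No test was made of these shares.

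Genes of cell cycle exit moved both ways, 13 of 31 higher and 13 lower (median log2FC 0.04). Cdkn1a, the p21 inhibitor that rises as myoblasts stop dividing, stood at 806, 882, 874 and 801 CPM at day 2 and 1553, 1551, 1313 and 1367 CPM at day 6 (log2FC 0.78 with SE 0.0672, adjusted p = 5.42e-11). The p53 targets Ccng1 and Mdm2 rose by log2FC 0.79 and 0.41. Cdkn1c, the p57 inhibitor, went the other way, at 26.3, 33.8, 35.4 and 35.6 CPM at day 2 and 11.1, 10.9, 11.4 and 12.5 CPM at day 6 (log2FC -1.52 with SE 0.137, adjusted p = 1.54e-09). Cdk4 and Cdk6, the kinases of the start of the cycle, fell by 0.49 and 0.55.

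In glycolysis and glycogen handling, 24 of 41 rose and 1 fell (median log2FC 0.24). Ppp1r3a, which targets a phosphatase to glycogen in muscle, stood at 4.24, 3.74, 6.14 and 3.79 CPM at day 2 and 21.6, 24.7, 27.2 and 31.0 CPM at day 6 (log2FC 2.57 with SE 0.146, adjusted p = 7.93e-15). Pfkm, the muscle phosphofructokinase, rose from 278 ± 28.9 to 576 ± 25.8 CPM (log2FC 1.05 with SE 0.0686, adjusted p = 1.68e-13), and Eno3, the muscle enolase, by log2FC 0.67, with its share against Eno1 moving from 65.9% ± 4.55 to 74.3% ± 1.31. The change of that log2 ratio was 0.58 with all 8 libraries and 0.54 to 0.61 without any 1 day 6 library, with an exact permutation p of 0.0571. For Pgam2 against Pgam1 the days overlapped (exact permutation p = 0.314). In the creatine and nucleotide list, 9 of 15 rose and 2 fell (median log2FC 0.27). Ckmt2, the mitochondrial creatine kinase of striated muscle, stood at 0.884, 1.36, 0.906 and 0.907 CPM at day 2 and 8.51, 5.58, 5.99 and 7.16 CPM at day 6 (log2FC 2.71 with SE 0.214, adjusted p = 4.32e-12), and Mb, myoglobin, at 180.0, 214, 187 and 179.6 CPM at day 2 and 480.0, 486, 412 and 446 CPM at day 6 (log2FC 1.26 with SE 0.0719, adjusted p = 1.76e-14). Neither overlapped between days. Ckm, the muscle creatine kinase, rose only by log2FC 0.27 (adjusted p = 0.0396), and this call was lost without day 2 replicate 1, 2 or 3, without day 6 replicate 1 or 2, and with other scalings (adjusted p = 0.0561 to 0.166), while Ckb, the brain form, and Gatm, the first enzyme of creatine synthesis, fell by 0.29 and 1.10.

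Among respiratory chain subunits, 29 of 84 rose and none fell (median log2FC 0.21). The 29 became 14 to 17 without day 2 replicate 2 or 4 or day 6 replicate 1 or 2, and 18 when library totals alone set the scale. Cox6a2, the muscle form of a subunit of cytochrome oxidase, rose from 12.9 ± 1.71 to 20.7 ± 3.91 CPM (log2FC 0.68 with SE 0.151, adjusted p = 0.000752). In fatty acid uptake and oxidation, 22 of 48 rose and 4 fell (median log2FC 0.18). Fabp3, the fatty acid carrier of muscle, rose from 7.69 ± 1.25 to 17.7 ± 2.41 CPM (log2FC 1.23 with SE 0.127, adjusted p = 1.87e-09), and the oxidation enzymes Hadhb, Acadl and Acadvl by log2FC 0.52, 0.46 and 0.41. Cpt1a, the liver-type gate of mitochondrial fatty acid entry, fell by 0.29, and Lpl, a lipase at the cell surface, by 3.09. Angptl4, an inhibitor of that lipase, did not pass the test (log2FC 0.03, adjusted p = 0.786). In the mitochondrial biogenesis list, 12 of 29 rose and 2 fell, the 12 becoming 6 or 7 without day 2 replicate 3 or day 6 replicate 1 or 2. Mfn2, of mitochondrial fusion, rose by log2FC 0.35, and the coactivator Ppargc1a did not pass (0.10). The sterol and fatty acid synthesis list stayed near the background, with 12 of 42 higher and 9 lower (median log2FC 0.01).

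**Figure D4:**
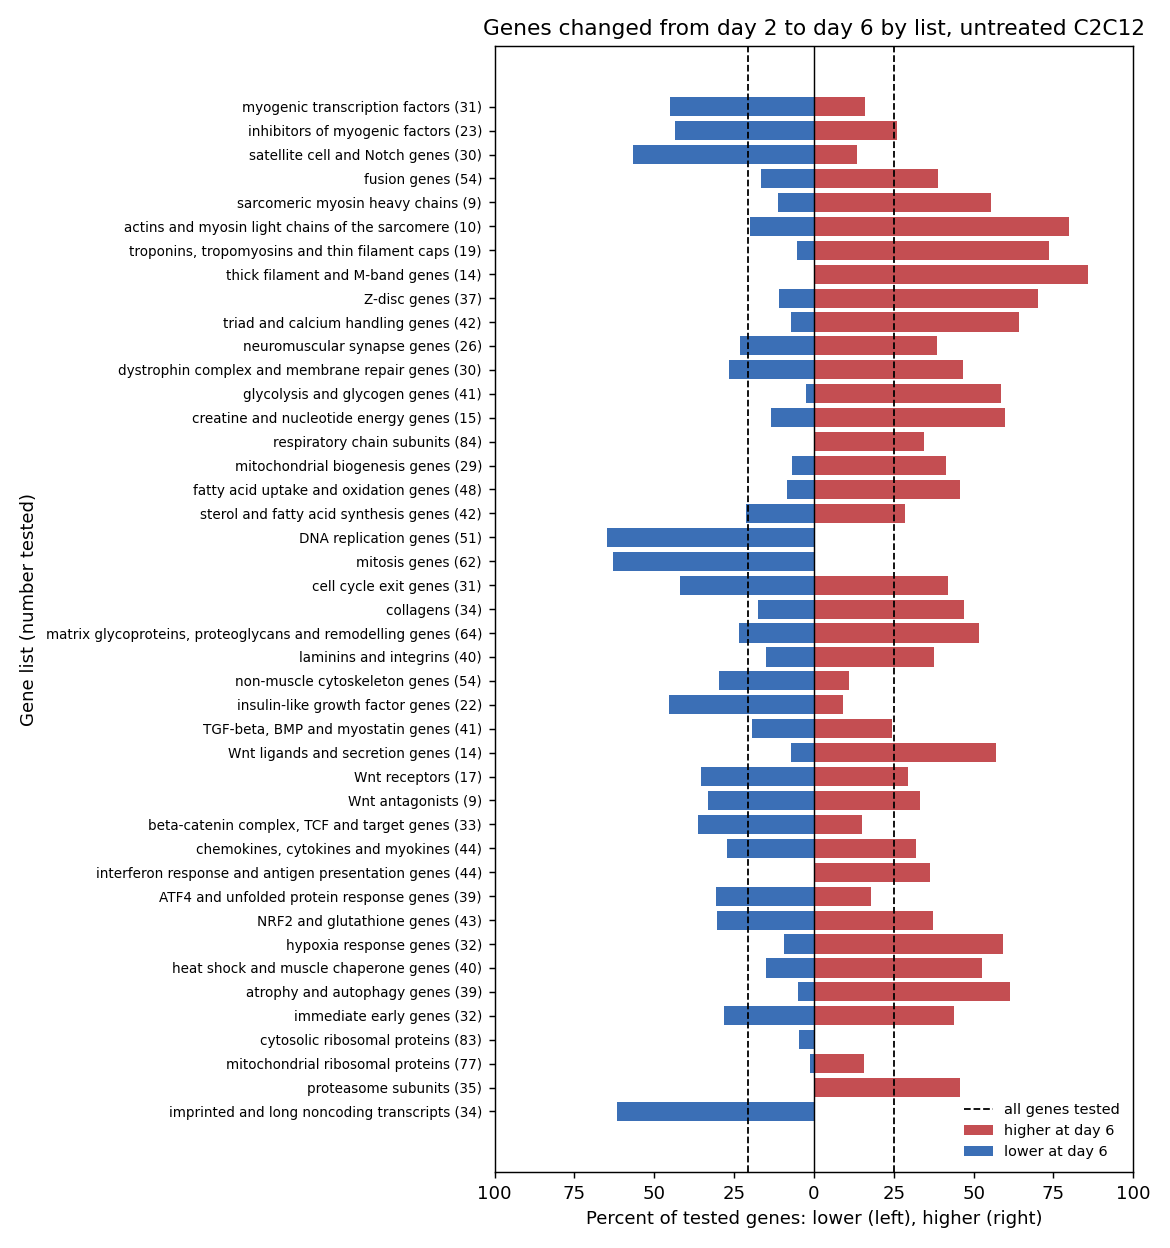
Percent of the tested genes of each of 43 lists that were higher (right) or lower (left) at day 6, with the number tested in brackets and dashed lines at the percentages over all 12994 genes, 25.2% higher and 20.5% lower. Contractile, triad and energy lists extend to the right, and replication, mitosis and imprinted transcript lists to the left.

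Extracellular matrix genes changed in both directions and some by large steps. Of 34 collagens tested (38 in the table), 16 rose and 6 fell (median log2FC 0.17). Of 64 matrix glycoprotein, proteoglycan and remodelling genes, 33 rose and 15 fell (median log2FC 0.21), and 8 rose and 3 fell by at least 2-fold. Col23a1, a transmembrane collagen, stood at 2.03, 1.36, 2.01 and 0.990 CPM at day 2 and 30.1, 25.3, 20.3 and 25.4 CPM at day 6 (log2FC 4.01 with SE 0.261, adjusted p = 2.58e-11). Col1a1, of fibrous collagen I, stood at 514, 745, 700.4 and 534 CPM at day 2 and 1171, 1317, 889.7 and 993 CPM at day 6 (log2FC 0.81 with SE 0.161, adjusted p = 0.000451). Fn1, fibronectin, stood at 7179.5, 7969, 6669.7 and 8463 CPM at day 2 and 12410.0, 13664, 12062 and 13012 CPM at day 6 (log2FC 0.76 with SE 0.0873, adjusted p = 7.91e-08), and Postn, periostin, at 157, 299.5, 196 and 172 CPM at day 2 and 547, 684, 475 and 632 CPM at day 6 (log2FC 1.498 with SE 0.242, adjusted p = 5.59e-05). In each of these 4 every day 6 library exceeded every day 2 library, though Col1a1 and Postn varied more within a day.

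The small leucine-rich proteoglycans, which regulate collagen fibrils, split. Lum stood at 2.21, 1.15, 1.01 and 2.06 CPM at day 2 and 9.74, 10.7, 14.2 and 9.75 CPM at day 6 (log2FC 2.79 with SE 0.195, adjusted p = 2.80e-13) and Dcn at 113, 89.7, 107 and 119.5 CPM at day 2 and 226, 223, 302 and 252 CPM at day 6 (log2FC 1.23 with SE 0.116, adjusted p = 3.11e-08). Ogn instead stood at 1919.6, 1775, 1947 and 2574 CPM at day 2 and 638, 1038, 1165 and 1304 CPM at day 6 (log2FC -0.99 with SE 0.183, adjusted p = 0.000224) and Omd at 37.2, 39.2, 37.7 and 73.3 CPM at day 2 and 7.61, 5.68, 15.2 and 13.4 CPM at day 6 (log2FC -2.16 with SE 0.303, adjusted p = 1.12e-05). Lum and Dcn were higher and Ogn and Omd lower in all 4 day 6 libraries, and Aspn fell too, by 0.95. Col12a1, a collagen on fibril surfaces, stood at 2495, 2814, 2481 and 3056 CPM at day 2 and 1799, 1713, 2167 and 2005 CPM at day 6 (log2FC -0.50 with SE 0.0739, adjusted p = 2.67e-06), and the basement membrane chains Col4a1 and Col4a2 fell by 0.37 and 0.22. Lum and Dcn stand on the fibroblast marker list, of whose 14 members 5 rose and 3 fell. Of 5 tested bone and cartilage markers, among them Omd, 2 fell and none rose, and the 8 in the table took 0.160% to 0.182% of counts at day 2 and 0.148% to 0.168% at day 6. The part of other cell types in these changes was not tested.

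**Figure D5:**
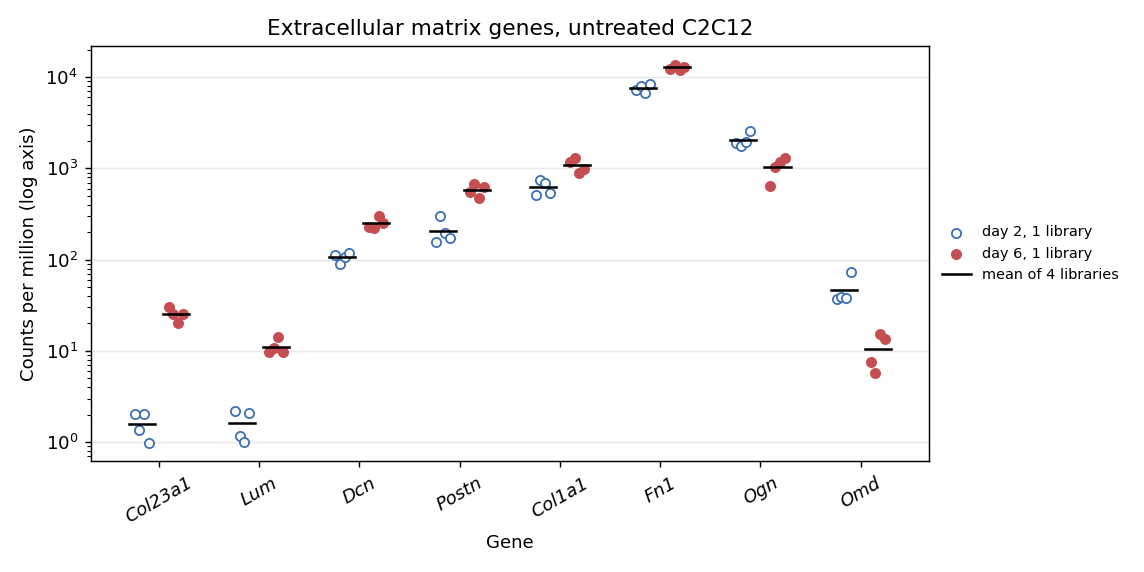
CPM (log axis) of 8 extracellular matrix genes in each of the 8 vehicle libraries, day 2 (open circles) and day 6 (filled circles), with the mean of each day as a bar. Col23a1, Lum, Dcn, Postn, Col1a1 and Fn1 are higher in every day 6 library, and Ogn and Omd are lower in every one.

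Laminins and integrins, which tie the fibre to the matrix, included 15 of 40 that rose and 6 that fell. Itga7, the integrin of mature muscle, rose by log2FC 0.46, and Itga6, a laminin receptor of precursors, stood at 152, 159, 161 and 148 CPM at day 2 and 79.8, 77.6, 87.5 and 74.0 CPM at day 6 (log2FC -0.96 with SE 0.0679, adjusted p = 5.11e-13). Lamb3 and Lama4 rose by 1.54 and 0.89, and Lama2 fell by 0.31. In the cytoskeleton outside the sarcomere, 16 of 54 genes fell and 6 rose (median log2FC -0.05). Actb and the smooth muscle actin Acta2, which early myotubes also use, fell by 0.38 and 0.45, and the nuclear lamins Lmnb1 and Lmnb2 by 0.64 and 0.66. The share of Acta1 against Actb moved from 53.7% ± 3.82 to 70.2% ± 1.36.

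Insulin-like growth factor signalling drives muscle differentiation and growth, and 10 of 22 of its genes fell while 2 rose (median log2FC -0.09). Igf2, the growth factor that myoblasts make themselves, stood at 614, 755, 676 and 661 CPM at day 2 and 381, 339.8, 311 and 269 CPM at day 6 (log2FC -1.06 with SE 0.0862, adjusted p = 4.29e-10). Igfbp2, which binds the growth factors outside the cell, stood at 54.9, 58.2, 48.9 and 49.2 CPM at day 2 and 9.66, 9.27, 8.82 and 10.1 CPM at day 6 (log2FC -2.49 with SE 0.141, adjusted p = 1.26e-12). Both were lower in all 4 day 6 libraries. Igfbp3 fell by 0.82, Pappa, a protease that frees the growth factors, rose by log2FC 1.08, and Igf1 did not pass the test (-0.03).

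Igf2 belongs to the imprinted genes, of which 1 parental copy is silent. In the list of imprinted genes and long noncoding transcripts, 21 of 34 fell and none rose (median log2FC -0.42), and 10 fell by at least 2-fold. Mest, an imprinted gene of embryonic tissue, stood at 70.3, 64.7, 75.6 and 81.5 CPM at day 2 and 22.7, 19.8, 20.9 and 24.3 CPM at day 6 (log2FC -1.74 with SE 0.0752, adjusted p = 1.94e-18). H19, transcribed next to Igf2, stood at 4703, 5094, 4514 and 4905 CPM at day 2 and 4015, 3824, 3424 and 3355 CPM at day 6 (log2FC -0.39 with SE 0.0624, adjusted p = 4.62e-06). Cdkn1c, described above, and Kcnq1ot1, the noncoding transcript over its domain, are imprinted too. Kcnq1ot1 stood at 56.9, 65.8, 76.9 and 93.5 CPM at day 2 and 11.4, 12.7, 22.5 and 17.4 CPM at day 6 (log2FC -2.19 with SE 0.372, adjusted p = 9.52e-05). Malat1, a transcript retained in the nucleus, stood at 15968, 14258, 16531 and 21969 CPM at day 2 and 7887, 4926, 11443 and 8179.7 CPM at day 6 (log2FC -1.08 with SE 0.430, adjusted p = 0.0474). The days did not overlap for either, but the day 6 libraries spread widely, replicate 3 being the highest and replicate 2 the lowest or next to lowest. The call of Malat1 was lost without day 2 replicate 1, 3 or 4, without day 6 replicate 1, 2 or 4 (adjusted p = 0.0592 to 0.123). Kcnq1ot1 overlaps another gene, and strand settings of the counting are not given in the sources used here, so its values are uncertain.

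Genes of signalling by TGF-beta and its relatives, antagonists included, moved both ways, 10 of 41 higher and 8 lower (median log2FC 0.03). Fst, the follistatin that traps myostatin and activins, stood at 177, 184, 192 and 181 CPM at day 2 and 301, 322, 279 and 277 CPM at day 6 (log2FC 0.68 with SE 0.0580, adjusted p = 2.29e-11), and Inhba, an activin subunit, rose by log2FC 0.68. Of the receptors, Tgfbr2 and Tgfbr3 rose by 0.60 and 0.45 and Tgfbr1 fell by 0.36. Ltbp4, which stores latent TGF-beta in the matrix, fell by 0.78.

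Wnt genes were read by role. Of 14 tested ligand and secretion genes (16 in the table), 8 rose and 1 fell (median log2FC 0.51), and 4 rose under a filter of 5 CPM. Porcn, which attaches the lipid that Wnt proteins need for secretion, stood at 43.0, 44.6, 41.5 and 47.6 CPM at day 2 and 82.3, 81.9, 77.9 and 86.0 CPM at day 6 (log2FC 0.89 with SE 0.0578, adjusted p = 5.19e-14). Wnt9a stood at 48.9, 47.6, 52.8 and 39.8 CPM at day 2 and 84.3, 82.1, 77.9 and 79.5 CPM at day 6 (log2FC 0.78 with SE 0.0636, adjusted p = 9.26e-12), and Wnt11, which was under 1 CPM in all day 2 libraries, rose from 0.497 ± 0.160 to 2.93 ± 0.336 CPM (log2FC 2.59 with SE 0.285, adjusted p = 6.46e-09). Among 17 receptors, 5 rose and 6 fell, led by Lgr5, a receptor for R-spondins (log2FC 1.86), and Fzd4 (log2FC -0.87). Among 9 antagonists, 3 rose and 3 fell. Of 33 genes of the beta-catenin complex, TCF factors and targets, 12 fell and 5 rose (median log2FC -0.10). Lef1 stood at 17.7, 18.7, 16.6 and 21.4 CPM at day 2 and 11.2, 10.6, 10.8 and 11.5 CPM at day 6 (log2FC -0.76 with SE 0.103, adjusted p = 3.84e-07), and Tcf7, Tcf7l1 and Tcf7l2 fell by 0.49, 0.42 and 0.61. Ctnnb1, beta-catenin itself, fell by 0.16. Axin2, the usual target used as a readout of the pathway, did not pass the test (log2FC 0.14, adjusted p = 0.245), and the target Tnfrsf19 rose by 1.73.

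Stress and turnover genes moved by list. Hypoxia response genes included 19 of 32 that rose and 3 that fell (median log2FC 0.28), among them Car9 and Ak4 (log2FC 1.16 and 1.26), while Stc2 fell by 1.12. Atrophy and autophagy genes included 24 of 39 that rose and 2 that fell (median log2FC 0.19). Tfeb, the factor of lysosome genes, rose by log2FC 0.76 and the protease Ctsd by 0.71, but Fbxo32, the atrogin ubiquitin ligase, fell by 0.19. Of 40 heat shock and muscle chaperone genes, 21 rose (13 without day 6 replicate 1) and 6 fell. Klhl40 and Klhl41, which stabilise thin filament proteins, rose by 0.95 and 0.69, and the mitochondrial chaperonin Hspd1 fell by 0.32. Of 44 interferon response and antigen presentation genes, 16 rose and none fell (median log2FC 0.25; 10 rose under a filter of 5 CPM), as for H2-K1 (log2FC 0.49).

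The ATF4 and unfolded protein list had 7 of 39 higher (4 without day 6 replicate 2) and 12 lower (median log2FC -0.02). The genes that fell most served amino acid supply: Asns, which makes asparagine, stood at 109, 121, 115 and 117 CPM at day 2 and 69.0, 67.5, 67.9 and 63.0 CPM at day 6 (log2FC -0.79 with SE 0.0529, adjusted p = 9.31e-14), and Psat1, Mthfd2 and the transporter Slc7a5 fell by 0.76, 0.77 and 0.73. In the NRF2 and glutathione list, 16 of 43 rose (9 without day 6 replicate 1) and 13 fell. The metallothioneins, which bind zinc and copper, fell furthest, Mt1 at 82.2, 63.7, 57.2 and 90.5 CPM at day 2 and 28.6, 18.0, 32.0 and 32.3 CPM at day 6 (log2FC -1.40 with SE 0.272, adjusted p = 0.000356) and Mt2 at 70.5, 45.6, 48.7 and 62.9 CPM at day 2 and 12.8, 7.97, 12.9 and 14.5 CPM at day 6 (log2FC -2.23 with SE 0.324, adjusted p = 1.62e-05). Sod3, the extracellular superoxide dismutase, rose by log2FC 1.02. Of 44 chemokines, cytokines and myokines, 14 rose and 12 fell, with Cxcl14 and Hbegf highest (log2FC 1.83 and 1.30) and Ccl11 and the growth factor Ptn lowest (-1.56 and -1.23). Hgf, which activates satellite cells, fell by 0.92. Of 32 immediate early genes, 14 rose and 9 fell, Junb by 0.80 upward and Arc by 1.38 downward. Cytosolic ribosomal protein genes barely moved, with 4 of 83 lower and none higher (median log2FC 0.03; 1 to 7 lower when 1 library was left out), and many of them have near-identical copies. Mitochondrial ribosomal proteins had 12 of 77 higher and 1 lower, and proteasome subunits 16 of 35 higher and none lower. Without day 6 replicate 1 the higher counts were 5 and 7, and leaving out any 1 of several other vehicle libraries lowered them as well. For proteasome subunits the higher count also depended on the scaling and the fit. It was 10 with DESeq2 size factors, 7 with library totals alone and 8 with the vehicle libraries fitted alone.

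Over all genes, listed or not, the 12 that rose most, among called genes of at least 5 CPM at 1 day and no overlap, ran from Mybpc2 (log2FC 4.13) to Xirp2 (2.85). They included the genes Cmya5, of the costamere and triad, at 0.531, 0.679, 0.403 and 0.495 CPM at day 2 and 5.65, 8.27, 7.12 and 6.33 CPM at day 6 (log2FC 3.64 with SE 0.264, adjusted p = 6.08e-13), Fxyd6, a regulator of the sodium pump (log2FC 4.02) and Ctsc, a lysosomal protease (3.22). The 12 that fell most ran from Lpl to Zfp521, a zinc finger factor (log2FC -2.02). Between them were the channel-like protein Tmc3, at 10.3, 8.22, 9.26 and 9.32 CPM at day 2 and 1.06, 0.897, 1.54 and 1.25 CPM at day 6 (log2FC -2.94 with SE 0.220, adjusted p = 1.76e-12), Dync1i1, a dynein chain (log2FC -2.28), Sema6b, a guidance protein (-2.21), and Hmcn1, a large matrix protein (-2.03). In all 24 genes the libraries of the days did not overlap, which the choice required.

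Whether the change from day 2 to day 6 differed under treatment was asked with the difference of the day changes, fitted in 1 model. Both differences use the same vehicle libraries. Library totals of the treated groups were less even between the days than those of vehicle libraries. LA totals were 9547787 to 25049912 counts at day 2 and 8192308 to 15230974 at day 6, with days that overlapped. ANGPTL4 totals were 13194847 to 20580188 at day 2 and 6100684 to 9067864 at day 6, without overlap. The part of these unequal totals in the differences was not tested. The day change with LA differed from that of untreated cells for 2554 genes (19.7%), 1128 higher (8.68%) and 1426 lower (11.0%). Which direction held more genes depended on the method. With DESeq2 size factors 1306 were higher and 1225 lower, with the compared groups fitted alone 1198 and 1115, and with limma-voom 1140 and 1448. With ANGPTL4 the day change differed for 36 genes (0.277%), 11 higher and 25 lower, and this count depends on the method. It was 381 with DESeq2, 1 with limma-voom and 0 to 312 when 1 library of the compared groups was left out. Where edgeR called 0, 1922 to 2256 genes had an unadjusted p under 0.05. With DESeq2 size factors it was 56, 34 higher and 22 lower, and with library totals alone 161, 28 higher and 133 lower. Angptl4 changed by log2FC 0.03 in untreated cells and 1.80 with LA (difference 1.77, adjusted p = 5.67e-15), and Cpt1a by -0.29 and 0.82 (difference 1.11, adjusted p = 3.19e-13). Aoc3, a cell surface amine oxidase, fell without treatment, from 9.15 ± 0.941 to 3.02 ± 1.11 CPM, and went from 10.54 ± 0.559 to 14.7 ± 1.29 CPM with LA (difference 2.08, adjusted p = 2.73e-08). Sema3e, Crybg1 and Cdk14 were also among the 6 with the lowest adjusted p, each with a higher day change under LA (differences 0.82, 1.23 and 0.59). For ANGPTL4, Ckb fell by 0.29 without treatment and by 0.70 with it (difference -0.41, adjusted p = 0.0382), and Fscn1, an actin-bundling protein, by 0.56 and 0.90 (difference -0.34, adjusted p = 0.0382). Usp47, Naalad2, Fmn1 and Sppl2b made up the 6, with differences of 0.32, 0.59, 0.44 and -0.52. All 6 lost their calls without ANGPTL4 day 2 replicate 3, ANGPTL4 day 6 replicate 1 or 4, vehicle day 2 replicate 4, or vehicle day 6 replicate 1 or 2 (edgeR adjusted p = 0.0535 to 0.108). With limma-voom, all but Fmn1 lost them (adjusted p = 0.0527).

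By list, the day change with LA was lower than without it for 62 of 84 respiratory chain subunits, 43 of 83 cytosolic ribosomal proteins, 22 of 42 triad genes and 17 of 37 Z-disc genes, and higher for none, none, 3 and none of them. Their median differences were -0.59, -0.59, -0.34 and -0.28 on the log2 scale, beside -0.02 over all genes. With ANGPTL4 the median differences of the same lists were -0.23, -0.28, -0.02 and 0.01, beside -0.02 over all genes. The first 2 lists were thus shifted downward with ANGPTL4 too, though only 1 gene of these lists, a respiratory chain subunit, was called. Of 64 matrix genes 27 had a higher and 3 a lower day change with LA. The counts of these differences by list were not repeated under other scalings or without single libraries. Without the LA day 2 replicate 3 and ANGPTL4 day 6 replicate 1 libraries, 6042 genes changed in untreated cells, 1873 differed with LA and 60 with ANGPTL4.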

How the data were processed

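QuantSeq libraries, which read transcript 3′ ends, gave raw counts of reads per gene for 14693 genes in 24 libraries, in the table deposited by the authors. Trimmomatic, STAR 2.7.1a, HTSeq 0.9.1, DESeq2, DESeq and the mm39 build are named, per the submitters' processing notes, without their settings or order, and whether the counting used strand is not given in the sources used here. Library totals of the 8 vehicle libraries were 9847952 to 14529573 counts. The lowest count of any gene summed over all libraries was 51, so rarer genes are not analysed here.

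From the deposited counts, all 24 libraries were fitted together with edgeR 4.0.16 (R 4.3.3): TMM scaling, filterByExpr (1699 genes removed, 12994 tested), 1 mean per group, robust quasi-likelihood F tests and Benjamini-Hochberg adjustment over all genes tested. Standard errors are the log2 fold change divided by the square root of F. CPM values are edgeR's, on TMM-scaled totals. Differences between day changes are contrasts of the same fit. Isoform shares and their log2 ratios (0.5 added to each count) and the shares of counts per list were compared between the 4 and 4 vehicle libraries by exact two-sided permutation tests. The calls within each list were described by counts and medians, with no set test. Alternatives were other scalings, other filters, DESeq2 1.42.0, limma-voom (limma 3.58.1), a replicate block, a fit of the compared groups only, and leaving out each library.

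The comparison, its gene lists and the promoter motifs were chosen with earlier results of these data known. Named genes were the 12 highest and 12 lowest changes with no overlap and at least 5 CPM at 1 day, up to 6 called genes in each direction per list at that level (any member of lists of 15 or fewer), a preset group of regulators and markers, both genes of each pair, and the 6 lowest adjusted p of each difference. Among genes so allowed, examples were picked after their values were seen, mostly genes whose calls held under the alternatives. Promoter windows are RefSeq sequences of build GRCm38.p6, matched by gene symbol.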

Additional observations from a re-analysis of the deposited data

Results flagged for a closer look

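Among 398 groups of 4 libraries (199 named genes at each day), 21 (5.28%) held 1 library far from the other 3, where Dixon's 95% criterion gives about 1 in 20 groups by chance. Day 2 replicate 4 was the distant one for 6 genes: high for Omd (73.3 CPM, the others 37.2 to 39.2), Cxcr4 (114 CPM) and Actb (2564 CPM), and low for Acadvl (82.2 CPM), Atp2a2 (733 CPM) and Cav3 (29.3 CPM). Day 2 replicate 2 was high for Ckmt2 (1.36 CPM) and Mymk (462 CPM) and low for Cxcl14 (4.35 CPM), Lama4 (8.42 CPM) and Myh4 (216 CPM). Day 2 replicate 1 was low for Mki67 (196 CPM, the others 266 to 278) and Inhba (70.0 CPM) and high for Arc (6.90 CPM), and day 2 replicate 3 was high for Notch1 (159 CPM) and Colq (12.4 CPM). Day 6 replicate 1 was low for Trdn (43.0 CPM, the others 82.7 to 89.2), Mki67 (117 CPM, the others 181 to 185) and Myf5 (6.39 CPM), and day 6 replicate 3 was high for Lama2 (130.1 CPM) and Fbxo32 (111 CPM). Mki67 and Trdn kept their calls when any 1 vehicle library was left out.

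The day change differed from that of untreated cells for 2554 genes with LA and for 36 with ANGPTL4 (edgeR contrasts). With LA, the differences on the log2 scale were 1.77 for Angptl4, 2.08 for Aoc3, 1.11 for Cpt1a, 1.23 for Crybg1, 0.82 for Sema3e and 0.59 for Cdk14. With ANGPTL4, they were -0.41 for Ckb, -0.34 for Fscn1, -0.52 for Sppl2b, 0.44 for Fmn1, 0.59 for Naalad2 and 0.32 for Usp47. Of the last 6, Ckb, Sppl2b, Fmn1 and Naalad2 also differed with LA, by -0.49, -0.37, 0.47 and 0.86. Both differences use the same vehicle libraries.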

How the results depend on the processing

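The 5930 genes that changed in untreated cells became 5150 to 5668 when 1 vehicle library was left out and 5168 to 6042 under the other settings. Of the calls, 55.2% were higher at day 6. The share was 49.7% with DESeq2 size factors, 46.4% with library totals and 49.3% with the vehicle libraries fitted alone. The median log2 fold change of all genes lay between -0.02 and 0.03 under all settings. Of 199 named genes, 194 kept direction and side of the threshold of the day 6 against day 2 comparison under every alternative. The exceptions are Ckm, Malat1, Myh7b, Mymk and Ttn. Because mostly genes whose calls held were picked as examples, the 194 of 199 does not describe how far other calls hold. Of the named differences with ANGPTL4, those of Ckb, Fscn1, Usp47, Naalad2, Fmn1 and Sppl2b also lost their calls under several alternatives. The difference with LA was 1806 to 2820 genes when 1 library was left out. The difference with ANGPTL4 (36 genes) was 56 with DESeq2 size factors, 161 with library totals alone, 64 under a filter of 5 CPM, 381 with DESeq2, 1 with limma-voom, 60 without the LA day 2 replicate 3 and ANGPTL4 day 6 replicate 1 libraries (an alternative chosen after seeing the data), and 0 to 312 when 1 library was left out. The cause was not tested. The change of the log2 ratio of Cpt1b to Cpt1a was 0.09 with all vehicle libraries, with days that overlapped. It ranged from -0.33 to 0.45 when 1 vehicle library was left out. Cpt1b took only 0.250% ± 0.172 of the counts of its pair at day 2 and 0.266% ± 0.227 at day 6. The low-count filter removed it from the gene tests. Replicate numbers recur in every group, but same-numbered vehicle libraries did not deviate together (correlations 0.0123 to 0.066), and only numbers 1 and 2 correlated best with their own. With the replicate block 5820 genes changed in untreated cells, 2377 differed with LA and 0 with ANGPTL4 (edgeR, 2298 at an unadjusted p under 0.05), the 6 named ANGPTL4 differences lost their calls (adjusted p = 0.0539 to 0.0593), and Malat1 lost its own (adjusted p = 0.0624). Counting depth limits genes near 1 CPM, about 10 to 15 counts in a library.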
